A study of Mus musculus with 35 samples.

Results

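The 9 genes described here encode transporters through which endothelial cells of the brain pass nutrients and hormones or return foreign compounds to the blood. They are *Slc2a1*, *Slc7a5*, *Slc3a2*, *Slc16a1*, *Slc38a5*, *Slco1c1*, *Slco1a4*, *Abcb1a* and *Abcg2*, taken by name from the 53465 genes of the bulk table. The rule itself uses no measured value, but the genes were chosen with earlier results of these data known. Brains of E14.5 mouse embryos were dissociated and sorted by flow cytometry into 4 populations, namely neural cells, microglia, endothelial cells and the mural cells that wrap vessels. Bulk RNA sequencing covered each population in 3 brains, with titles such as Ec-340, Ec-343 and Ec-346, which gave 12 libraries, and values are given below in that order of brains. Single cells from the same 4 sort gates were sequenced from 3 wild-type plates by mCEL-Seq2, which counts transcripts from their 3′ ends, and 3 further plates carried cells labelled Mof Knockout.

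The gates were negative for all markers (neural), high PDGFRβ (mural), PECAM1 with CD102 (endothelial) and CD11b with medium CD45 (microglia). In the well table of the single-cell plates, the microglial gate is given as CD41 positive with medium CD45. No treatment was given to any group, and neither the strain nor the line that deletes *Mof* is given in the sources used here. The neural libraries were made with a different RNA and library kit from the other 3 populations, so that kit and population cannot be told apart wherever neural cells are compared. In bulk RNA, a lower share of cells carrying a transcript and less of it per cell cannot be told apart.

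The endothelium of the brain is sealed by tight junctions, so that polar nutrients cross it by carriers in the luminal and abluminal membranes. Carriers of the solute carrier (SLC) class move glucose, amino acids, monocarboxylates and thyroid hormone along or against gradients. Pumps with an ATP-binding cassette (ABC) spend ATP to send lipophilic compounds back into the blood, and this pair of systems makes brain capillaries selective.

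The bulk libraries held 17638358 to 98414914 reads on genes, with the 3 endothelial libraries between 17638358 and 21088739. Summed normalized counts of 9 endothelial markers lay between 191541 and 229308 in the endothelial libraries and at 7963 or below in the other 9. Markers of red blood cells also summed highest in endothelial libraries, at 12168 to 32942 against 242 to 11347 elsewhere, and all 6 of these markers were found there. In single cells of the endothelial gate the same 6 markers summed to 3.6 CPM (transcripts of a gene scaled by the total of the cells), with 3 of them at 0.

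Of the 9 transporters, 7 were higher in endothelial cells than in the mean of the other 3 populations, 0 were lower, and 2 did not pass the test in either direction. The test was limma on log2(normalized count + 1) over 19765 genes with Benjamini-Hochberg adjustment at 0.05, and 19.7% of all tested genes were higher and 22.4% lower by the same rule. At an unadjusted p under 0.05, 1 of the 9 was lower, and edgeR and DESeq2 on recovered reads also called 0 lower. Over all genes, edgeR split its calls into 4115 higher and 2514 lower, against 3892 and 4430 by limma. More than 10-fold higher were 5 of the 9, against 6.28% of all tested genes. The 3 endothelial libraries lay above all 9 others for 7 of the 9, against 6.28% of tested genes. The median log2 difference was 4.89 over the 9 transporters and -0.12 over all tested genes. Without the libraries of the second brain, *Slc16a1* was called lower in endothelial cells (log2 difference -2.57, limma adjusted p = 0.0448). Its difference was -0.45 without the first brain (limma adjusted p = 0.489), -1.62 without the third (limma adjusted p = 0.303) and -0.77 with edgeR on recovered reads (adjusted p = 0.400).

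**Figure D1:**
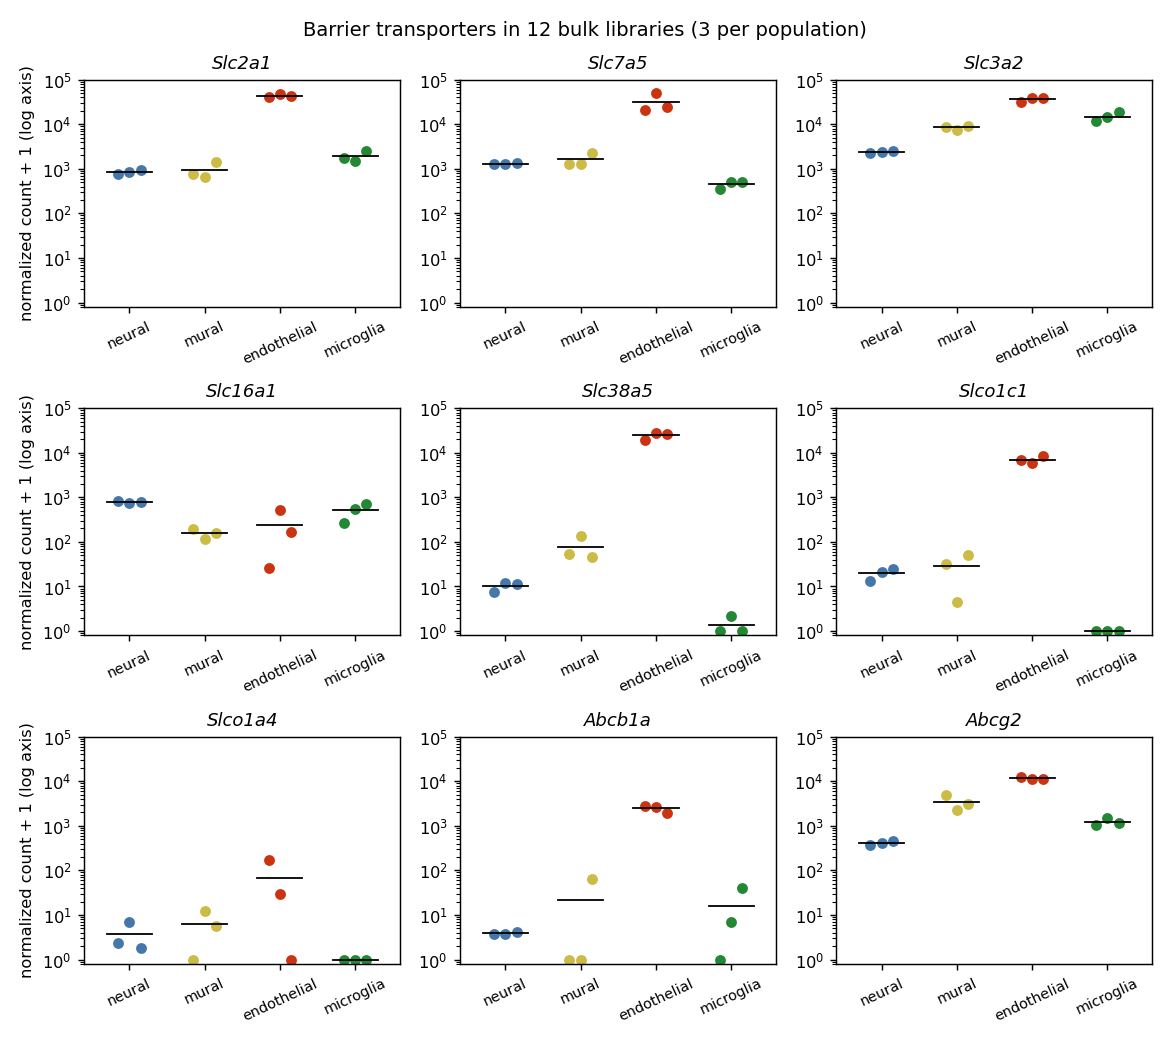
Normalized count + 1 of each transporter (log axis) in the 12 bulk libraries, grouped by sorted population; dots are libraries and the black line is the mean of 3. For 7 transporters the 3 endothelial dots sit above the other 9, whereas for Slc16a1 and Slco1a4 they overlap with other populations.

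*Slc2a1* (ENSMUSG00000028645, chromosome 4 from 119108711 to 119137983 in GRCm38) encodes GLUT1, the facilitative carrier through which glucose enters the brain. Its normalized counts were, in the order of the brains, 40547, 47887 and 42824 in endothelial cells, 1752, 1493 and 2478 in microglia, 764, 656 and 1395 in mural cells, and 765, 852 and 920.2 in neural cells. All endothelial libraries stood far above the rest, and mural and neural libraries overlapped. The endothelial mean of 43753 ± 3757 (SD, n = 3) was 22.9-fold that of microglia, the next population. The log2 difference between endothelial cells and the mean of the others was 5.29 (SE 0.22, limma adjusted p = 6.08e-08). Microglia were above neural cells by 1.14 and above mural cells by 1.07 on the log2 scale (limma adjusted p = 0.00347 and 0.00851, where 29.3% and 20.1% of tested genes were called), whereas mural and neural cells could not be separated (limma adjusted p = 0.844). The part of red blood cell RNA in the bulk endothelial level was not tested, and cells of the endothelial gate on the plates held *Slc2a1* at 1252 CPM beside 3.6 CPM of red blood cell markers.

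*Slc16a1* (ENSMUSG00000032902, chromosome 3 from 104638668 to 104658462) encodes MCT1, a proton-coupled carrier of lactate, pyruvate and ketone bodies. Normalized counts of *Slc16a1* were 24.8, 511 and 167 in endothelial cells, 808, 727 and 784 in neural cells, 262, 553 and 710.0 in microglia, and 192.3, 116 and 155 in mural cells. The lowest endothelial library lay below every other library, the highest lay within the range of microglia, and none reached the neural libraries. These endothelial values rested on 14, 360 and 111 reads. The difference between endothelial cells and the mean of the others was -1.54 on the log2 scale (SE 0.70, limma adjusted p = 0.0977). Neural cells were above the mean of the others by 1.88 (SE 0.70, limma adjusted p = 0.0350), where 32.9% of tested genes were higher. This call of *Slc16a1* was lost with no minimum (limma adjusted p = 0.0507), with quantile normalization (limma adjusted p = 0.0904) and without the third brain (limma adjusted p = 0.164). Endothelial cells were 2.57 below neural cells (SE 0.85, limma adjusted p = 0.0239), a call that was lost with edgeR on recovered reads (adjusted p = 0.0806), without the first brain (limma adjusted p = 0.0866) and without the third brain (limma adjusted p = 0.142). Thus *Slc16a1* was the only transporter of the set with its highest bulk mean outside the endothelium.

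Amino acids are served by 3 of the transporters. *Slc7a5* (ENSMUSG00000040010, chromosome 8 from 121881150 to 121907694) encodes LAT1, the exchanger of large neutral amino acids, which also carries L-DOPA and thyroid hormone. Its normalized counts were 20903, 49446 and 23961 in endothelial cells, 1311, 1311 and 2308 in mural cells, 1313, 1267 and 1343 in neural cells, and 359, 519 and 515 in microglia. The endothelial library of the second brain stood above the sum of the other 2, and the lowest endothelial library was still above every other library. The endothelial mean of 31437 ± 15671 (SD, n = 3) was 19.1-fold the mural mean, with a log2 difference from the mean of the others of 4.89 (SE 0.26, limma adjusted p = 2.68e-07). Mural and neural cells could not be separated (limma adjusted p = 0.501), and microglia were lowest.

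*Slc3a2* (ENSMUSG00000010095, chromosome 19 from 8706882 to 8723369) encodes the CD98 heavy chain, the glycoprotein that brings LAT1 and related light chains to the membrane. Its normalized counts were 32408, 38507 and 38940 in endothelial cells, 11915, 14231 and 18600 in microglia, 8610, 7615 and 9237 in mural cells, and 2302, 2365 and 2456 in neural cells. No library of one population overlapped with another. The endothelial mean of 36619 ± 3652 (SD, n = 3) was 2.46-fold the microglial mean, the smallest step among the 7 transporters that were called. The log2 difference was 2.46 (SE 0.12, limma adjusted p = 1.60e-07), and 1.71 when the neural libraries were left out. All 3 steps in the order endothelial, microglia, mural and neural passed the test, and 25.8% of tested genes were higher in mural than in neural cells.

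Because both chains form 1 transporter, their ratio was taken within each library. The log2 ratio of *Slc3a2* to *Slc7a5* was 0.32 ± 0.59 in endothelial cells (range -0.36 to 0.70, n = 3) and 2.76 ± 1.82 in the other libraries (range 0.81 to 5.17, n = 9). The populations ranged from 0.86 in neural cells to 2.42 in mural cells and 5.0 in microglia, so heavy chain counts exceeded light chain counts in every library outside the endothelium. The endothelial ratio was lower by 2.43 in an exact two-sided permutation test over libraries (p = 0.0091, adjusted over the 2 ratios tested 0.0091), which is the smallest p this design can give. The test treated libraries as exchangeable and left out their pairing by brain. With 1 brain left out the smallest p rises to 0.0714, and the difference lay between -2.66 and -2.10.

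*Slc38a5* (ENSMUSG00000031170, X chromosome from 8271133 to 8280179) encodes SNAT5, a sodium-coupled carrier of glutamine, asparagine, histidine and serine. *Slc38a5* counted 18883, 28184 and 26324 in endothelial cells, 52, 131 and 44.1 in mural cells, 6.68, 11.1 and 10.3 in neural cells, and 0, 1.19 and 0 in microglia. The endothelial mean of 24464 ± 4922 (SD, n = 3) was 323-fold the mural mean. The log2 difference of 11.29 (SE 0.46, limma adjusted p = 6.08e-08) was also the largest of the 9, and all 3 steps in the order of populations passed the test, where 30.4% of tested genes were higher in neural cells than in microglia.

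Organic anions and thyroid hormone are carried by *Slco1c1* and *Slco1a4*, neighbours on chromosome 6. *Slco1c1* (ENSMUSG00000030235, 141524368 to 141570177) encodes OATP1C1, the main route of thyroxine into the rodent brain, and *Slco1a4* (ENSMUSG00000030237, 141805440 to 141856199) encodes OATP1A4, a carrier of bile acids, steroid conjugates and drugs. The 250 bases ahead of the RefSeq start of both genes, and those of *Slc16a1*, the transporter with its highest bulk mean outside the endothelium, are printed 5′ to 3′ on the strand of the gene, from GRCm38.p6. Capitals mark matches, on either strand, to short motifs of factors named in work on brain vessels: TCF/LEF CTTTG, ETS GGAAG, SOX ACAAT and the hypoxia element ACGTG, with overlapping matches merged.
Slco1c1, chr6:141524104-141524353, plus strand: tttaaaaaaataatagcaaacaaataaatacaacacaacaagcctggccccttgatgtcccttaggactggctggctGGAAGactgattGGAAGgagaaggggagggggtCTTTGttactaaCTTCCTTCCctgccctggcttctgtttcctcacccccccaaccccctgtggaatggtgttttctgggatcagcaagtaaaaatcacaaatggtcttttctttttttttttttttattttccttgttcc
Slco1a4, chr6:141856221-141856470, minus strand: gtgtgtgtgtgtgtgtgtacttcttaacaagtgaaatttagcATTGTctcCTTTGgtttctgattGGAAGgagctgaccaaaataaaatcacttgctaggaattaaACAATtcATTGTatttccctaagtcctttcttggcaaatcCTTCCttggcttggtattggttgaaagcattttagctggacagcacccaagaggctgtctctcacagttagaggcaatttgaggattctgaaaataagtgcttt
Slc16a1, chr3:104638414-104638663, plus strand: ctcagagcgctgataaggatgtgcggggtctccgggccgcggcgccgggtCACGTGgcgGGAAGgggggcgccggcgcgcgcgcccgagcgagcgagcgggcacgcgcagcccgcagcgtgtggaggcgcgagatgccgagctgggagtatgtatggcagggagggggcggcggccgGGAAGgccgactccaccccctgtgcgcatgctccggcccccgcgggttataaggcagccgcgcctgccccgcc
These letters are common: in the 250 bases before the start, CTTTG was found in 48.6% of 32851 RefSeq promoters, GGAAG in 64.1%, ACAAT in 27.7% and ACGTG in 16.6%. RefSeq windows were matched for 8 of the 9 transporters. In the printed bases, *Slco1c1* held 1 TCF/LEF and 4 ETS matches, *Slco1a4* held 1 TCF/LEF, 2 ETS and 3 SOX matches, and *Slc16a1* held 2 ETS matches and 2 hypoxia matches that share a palindrome. Hypoxia matches were not particular to *Slc16a1*, as the windows of *Slc2a1*, *Slc38a5* and *Slc3a2*, not printed here, also held them. A match is a description of the letters and not of a bound site.

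*Slco1c1* counted 6948, 5776 and 8455 in endothelial cells, 31.5, 3.42 and 48.8 in mural cells, 12, 20.49 and 23.8 in neural cells, and 0 in all 3 microglial libraries. The endothelial mean of 7060 ± 1343 (SD, n = 3) was 253-fold the mural mean and at least 1943-fold higher than in microglia, taking 3 reads per library as the floor. The log2 difference was 9.93 (SE 0.67, limma adjusted p = 1.47e-06), and mural and neural libraries overlapped. *Slco1a4* was close to the limit of counting, at 172, 28.4 and 0 in endothelial cells against 11.4 or less in every other library. It rested on 97, 20 and 0 endothelial reads, 15 neural reads and 15 mural reads. Its log2 difference of 2.88 (SE 1.29, limma adjusted p = 0.0959) did not pass the test, whereas edgeR on recovered reads gave 5.81 for *Slco1a4* (adjusted p = 0.0189) and limma without the third brain gave 4.87 (adjusted p = 0.0259). Reads of *Slco1a4* may be shared with its near copies *Slco1a5* and *Slco1a6*, so its counts are uncertain.

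Efflux is represented by a pair of ABC pumps. *Abcb1a* (ENSMUSG00000040584, chromosome 5 from 8660077 to 8748575) encodes the capillary form of rodent P-glycoprotein, which expels lipophilic drugs. Its normalized counts were 2830, 2602 and 1973 in endothelial cells, 0, 0 and 62 in mural cells, 0, 5.93 and 39 in microglia, and 2.67, 2.77 and 3.17 in neural cells. Endothelial libraries formed a class of their own, and the other 3 populations could not be separated from each other. The mean of 2468 ± 444 (SD, n = 3) was 119-fold the mural mean, which rested on 66 reads of the third brain alone. The log2 difference from the mean of the others was 9.04 (SE 1.32, limma adjusted p = 0.000327).

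*Abcb1b*, the sister gene of *Abcb1a*, shares much of its sequence, so reads could be split between them. It counted 12.4, 2.84 and 9.05 in endothelial cells but 661, 708 and 1324 in microglia. The log2 ratio of *Abcb1a* to *Abcb1b* was 8.25 ± 1.0 in endothelial cells (range 7.62 to 9.41, n = 3) and -2.77 ± 3.71 in the other libraries (range -9.37 to 2.89, n = 9). In microglia it averaged -7.03, so that *Abcb1b* was the prevailing form there. The ratio was higher by 11.02 in endothelial cells (exact two-sided permutation p = 0.0091, adjusted over the 2 ratios 0.0091, the smallest p possible), and by 10.41 to 12.20 with 1 brain left out, where p was 0.0714. Its size depends on the 1 added to each count, and with 10 added the difference was 8.96. In the mural library of the second brain neither gene had a read.

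*Abcg2* (ENSMUSG00000029802, chromosome 6 from 58584523 to 58695676) encodes BCRP, an efflux pump for sulfated conjugates and many drugs. Its normalized counts were 12767, 11177 and 11171 in endothelial cells, 4895, 2295 and 3104 in mural cells, 1019, 1518 and 1166 in microglia, and 378, 420.3 and 453 in neural cells. The populations did not overlap, and mural cells were above microglia, as were 17.9% of tested genes. The endothelial mean of 11705 ± 919 (SD, n = 3) was 3.41-fold the mural mean, with a log2 difference of 3.30 (SE 0.20, limma adjusted p = 7.28e-07), which was 2.55 without the neural libraries. Mural cells were the second site of *Abcg2*, 0.85 above the mean of the others on the log2 scale (limma adjusted p = 0.00666, where 19.3% of tested genes were higher), a call of *Abcg2* that was lost without the first brain (0.52, limma adjusted p = 0.0675) and without the third (0.89, limma adjusted p = 0.0792). Mural markers summed to 4060 to 7183 normalized counts in endothelial libraries and to 703098 or more in mural libraries.

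**Figure D2:**
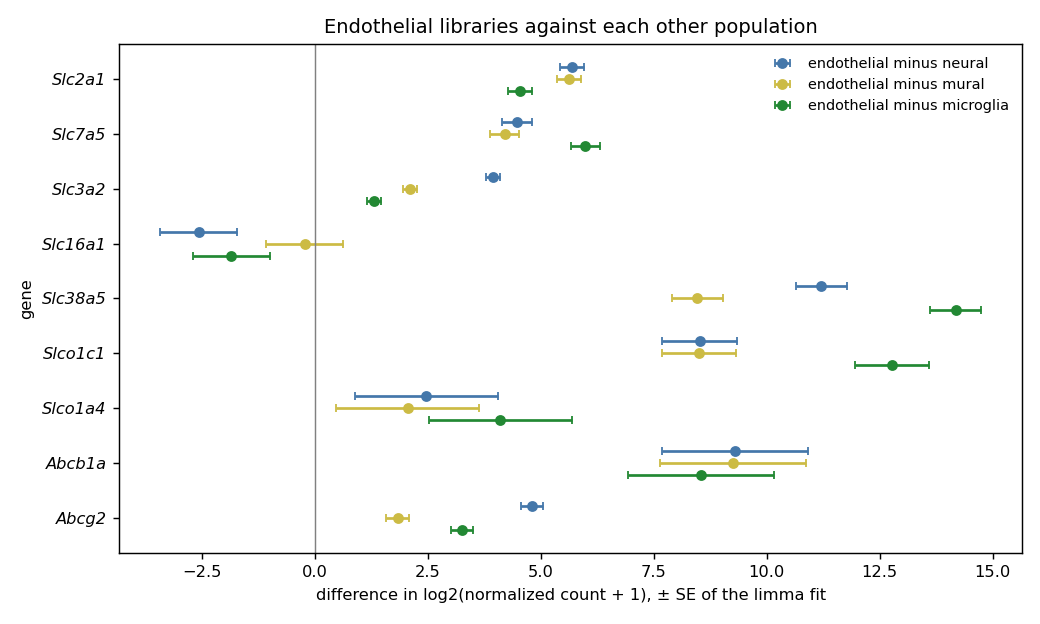
Log2 difference of each transporter between endothelial cells and neural cells, mural cells or microglia, from limma on log2(normalized count + 1), with bars for the standard error and 3 libraries per population. Slc38a5, Slco1c1 and Abcb1a lie farthest to the positive side, and Slc16a1 is negative against neural cells (-2.57). Among the called transporters, Slc3a2 and Abcg2 lie closest to 0 against mural cells and microglia. Against neural cells Slc3a2 (3.94) and Slc7a5 (4.48) lie closest, with Abcg2 at 4.81.

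Against each single population, the same 7 transporters were higher in endothelial cells, where 27.1% of tested genes were higher than in neural cells, 14.3% higher than in mural cells and 15.3% higher than in microglia. Without the second brain, *Abcb1a* was no longer called against mural cells (limma adjusted p = 0.0621), which left 6. *Slc16a1* alone was lower than in neural cells, as were 30.6% of tested genes. Microglia themselves were above the mean of the other populations for *Slc3a2* only (log2 0.70, limma adjusted p = 0.000791, where 23.4% of tested genes were higher).

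To compare transporters with each other, counts were divided by the exon length of the gene and scaled to the same sum in each library. On this per-length scale the endothelial levels were 930 ± 143 for *Slc2a1*, 815 ± 202 for *Slc38a5*, 772 ± 108 for *Slc3a2* and 644 ± 368 for *Slc7a5* (SD, n = 3). These 4 levels lay within their spread of each other. A second tier followed with *Abcg2* at 106 ± 8.06 and *Slco1c1* at 100.4 ± 13.8, also within their spread, and then *Abcb1a* at 33.5 ± 6.93. *Slc16a1* (4.11 ± 4.59) and *Slco1a4* (0.759 ± 1.02) were at the bottom. In neural cells *Slc16a1* reached 28.5 ± 1.5, while *Slc38a5*, *Slco1c1*, *Abcb1a* and *Slco1a4* were all below 1.

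Over the 12 bulk libraries, the genes with the most similar log2 patterns were described by Pearson's r, which reflects the 4 populations and carries no test. For *Slc2a1* these were *Plec* (0.989), *Foxo1* (0.981) and *Nhsl2* (0.981). *Slc7a5* lay closest to *Smtn* and *Slc7a1* (both 0.982), the latter a carrier of cationic amino acids, and *Vwa1* (0.978). *Slc38a5* also lay closest to *Smtn* (0.992), followed by *C130074G19Rik* (0.991) and *Efna1* (0.984). The closest gene to *Slco1c1* was *Slc7a5* (0.976), followed by *Mfhas1* (0.972) and *Mpzl1* (0.970). *Abcb1a* was nearest to *Gm47897* (0.969), *Sox18* (0.965) and *Esm1* (0.963), and *Abcg2* to *Pde8a* (0.993), *Utrn* (0.986) and *Fkbp1a* (0.980). For *Slc3a2* they were *Zfp69* (0.992), *Pdlim5* (0.988) and *Arap3* (0.986). *Slc16a1* had *Lnpep* (0.969), *Hook2* (0.964) and *Mfsd10* (0.958), and *Slco1a4*, with its few reads, *Rpap3* (0.927), *Spata31d1d* (0.915) and *Gm42480* (0.900).

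Other transporters known at the blood-brain barrier were read from a list of 30 genes. In endothelial cells 22 of the 30 were higher, 4 lower and 4 not called, with 12 over 10-fold and a median log2 difference of 2.63, where 19.7% of all tested genes were higher, 22.4% lower and 6.28% over 10-fold higher. A difference from the mean of the other 3 populations can hold for a gene that 1 of these shares. The largest differences were those of *Flvcr2* (8.95, SE 0.58, limma adjusted p = 1.13e-06), a choline carrier, *Slc38a3* (8.89, SE 0.81, adjusted p = 1.36e-05), a glutamine carrier, *Slc22a8* (8.01, SE 0.42, adjusted p = 2.02e-07), an organic anion carrier, and *Mfsd2a* (7.01, SE 1.2, adjusted p = 0.000932), the carrier of lysophospholipids with docosahexaenoic acid. *Slc22a8* was shared with mural cells, at 2193, 3113 and 4521 normalized counts against 3955, 5154 and 4662 in endothelial cells, and these libraries overlapped. Lower in endothelial cells were *Slc27a1* (-4.42, limma adjusted p = 0.00210), a fatty acid transport protein, and *Abcc1* (-2.23, limma adjusted p = 0.000879), an efflux pump of conjugates.

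The close relatives of the 9 transporters were split between higher and lower. Of 28 genes, paralogs and the partner protein gene *Bsg*, 26 could be tested, and 10 were higher, 9 lower and 7 not called, with a median of -0.00 on the log2 scale, against 19.7% higher and 22.4% lower among all tested genes. Higher than the mean of the others were *Slco2a1* (6.28), a prostaglandin carrier, *Slco2b1* (4.49), *Slc38a4* (3.51) and *Slco3a1* (3.07), with limma adjusted p of 0.000565, 8.15e-06, 0.00122 and 0.00707. Of these, *Slco2b1* had a higher mean in microglia (7179, 7313 and 6947) and *Slc38a4* in mural cells (894, 224 and 1124, against 124, 318 and 496 in endothelial cells), and *Slco3a1* overlapped with neural cells (498, 450.2 and 486, against 659, 345 and 296). *Slc2a3*, which encodes the neuronal glucose carrier GLUT3, had no read in any endothelial library but counted 2556, 2366 and 3304 in mural cells (limma adjusted p = 7.42e-09). *Slc16a7*, the monocarboxylate carrier MCT2, also had no endothelial read (limma adjusted p = 0.000134). Among the most abundant endothelial relatives by family were *Slc38a2* (26315 ± 5595 normalized counts), *Slc7a1* (23828 ± 8095), *Abcg1* (9243 ± 1533), *Slco2b1* (5712 ± 1938), *Slc2a12* (113 ± 99.3) and *Abcb4* (65.4 ± 72.5). Beside *Slc38a5*, the amino acid carrier *Slc38a2* was thus of the same order in normalized counts, whereas the 4 relatives of *Slc2a1* that were read averaged 113 or less.

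Barrier formation in brain vessels depends on Wnt ligands of neural cells read by endothelial receptors, and 20 genes of this pathway were listed. Of these, 17 were higher in endothelial cells, 1 lower and 2 not called, with 12 over 10-fold and a median of 3.81, where 19.7% of all tested genes were higher, 22.4% lower and 6.28% over 10-fold higher. The transcription factors *Sox17* (11.12, SE 1.01, limma adjusted p = 1.30e-05), *Sox7* (11.09, SE 1.14, adjusted p = 2.95e-05) and *Foxq1* (7.69, SE 0.40, adjusted p = 2.24e-07) and the receptor *Fzd6* (6.48, SE 0.37, adjusted p = 4.17e-07) differed most. Mural cells also held *Foxq1* (1674, 2187 and 1429 normalized counts, against 4270.3, 5043 and 3861 in endothelial cells) and *Fzd6* (891, 1895 and 1738, against 4077, 6186 and 4012). Not every gene of the 17 peaked in endothelial cells. *Ctnnb1* counted 36312, 36400 and 37579 in neural cells against 11629, 10987 and 12794. *Axin2*, *Reck* and *Tspan12* were higher in all mural than in all endothelial libraries, whereas *Sox17* and *Sox7* were highest in the endothelial ones. The co-receptor *Lrp6* was lower (-0.68, limma adjusted p = 0.0268), but its endothelial libraries overlapped with mural cells and microglia, and on the plates it was not called (-0.02, edgeR adjusted p = 0.976).

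Nuclear receptors and other regulators of drug and hormone transport were listed as 13 genes. Of these 11 were tested, of which 2 were higher and 1 lower, with a median of 0.51, against 19.7% higher and 22.4% lower among all tested genes. The thyroid hormone receptor *Thrb* (2.45, limma adjusted p = 0.0321) and the oxidative stress factor *Nfe2l2* (0.51, limma adjusted p = 0.0140) were higher, and *Dio3*, which inactivates thyroid hormone, had no endothelial read and was lower (limma adjusted p = 0.00736). *Thrb* counted 30.1, 18.5 and 219 in endothelial cells and 72.1, 79.2 and 95.6 in neural cells, so that 2 endothelial libraries lay below the neural ones, and *Nfe2l2* was highest in microglia (8533 to 9711, against 2342 to 3307 in endothelial cells). Among 17 genes of the amino acid and hypoxia responses, 1 was higher, 10 lower and 6 not called, with a median of -0.72. The higher gene was *Epas1* (5.88, limma adjusted p = 1.80e-05), a hypoxia factor, which mural cells held at 10469, 7679 and 12677 against 8241, 19680.0 and 10692 in endothelial cells, with overlap. *Hk2* (-5.31, limma adjusted p = 0.000302) and *Vegfa* (-3.76, limma adjusted p = 0.000765) had the largest negative differences.

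**Figure D3:**
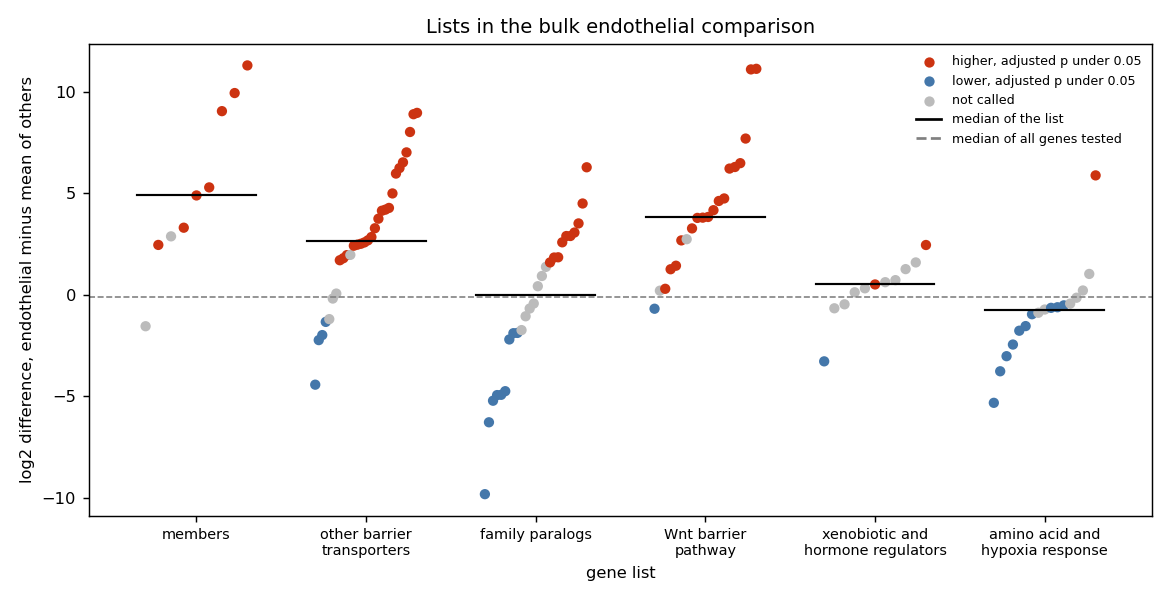
Log2 difference between endothelial cells and the mean of the other 3 populations for the 9 transporters and 5 further gene lists; dots are genes, bars are list medians and the dashed line is the median of all tested genes. The medians are 4.89 for the transporters, 2.63 for other barrier transporters, -0.00 for paralogs, 3.81 for the Wnt list, 0.51 for regulators and -0.72 for the amino acid and hypoxia responses.

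On the wild-type plates, 686 of 994 gated wells held more than 1500 transcripts and were kept, with 123 neural, 210 mural, 225 endothelial and 128 microglial cells. The libraries were split over 3 plates, which served as replicates; whether a plate held cells of 1 brain is not stated. Plate 3 gave only 14, 10, 13 and 6 cells of these gates. Barcodes are shared among libraries by design, with 96 wells per library, 5 wild-type libraries on barcodes from 1 and 6 on barcodes from 97. Markers of the sorted population were the highest of the 4 lists in 209 of 225 endothelial cells, 121 of 123 neural cells, 195 of 210 mural cells and 128 of 128 microglia. Median transcripts per cell were 6408 in the endothelial, 7717 in the neural, 6885 in the mural and 10761 in the microglial gate.

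Single cells gave the same 7 transporters as bulk. Counts were summed per gate and plate and tested with edgeR's quasi-likelihood test and Benjamini-Hochberg adjustment over 9281 genes. The test gives no SE, so the SE printed with edgeR is the absolute log2 difference divided by the square root of its F value. It is not comparable with the SE from limma. Of 8 transporters tested, 7 were higher in the endothelial gate than in the mean of the other gates, 1 was not called and 0 were lower, against 16.4% higher and 6.96% lower among tested genes. An unadjusted p under 0.05 and DESeq2 also gave 0 lower. Over 10-fold higher were 5, against 3.02% of tested genes, and these were the 5 of the bulk comparison. For 6 transporters the sums of the 3 endothelial plates lay above the other 9 sums, against 3.46% of tested genes. *Slco1a4* fell below the filter on low counts and was not tested there. With no filter the neural gate was called higher for *Slco1a4* (edgeR adjusted p = 0.0106), which rested on 4 transcripts in 2 cells of plate 2, while the other 3 gates held no transcript. *Slc16a1* was not called (log2 -0.34, SE 0.63, edgeR adjusted p = 0.771).

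The glucose and amino acid carriers were found on every plate. *Slc2a1* reached 1249, 1352 and 385 CPM in the endothelial gate of plates 1, 2 and 3, against a highest sum of 98.5 CPM in any other gate, and its log2 difference was 4.88 (SE 0.28, edgeR adjusted p = 1.91e-22). *Slc7a5* reached 1109, 1144 and 485 CPM against at most 179 CPM elsewhere (log2 4.56, SE 0.26, edgeR adjusted p = 4.41e-22). *Slc38a5* stood at 502, 473 and 128 CPM against at most 19.7 CPM (log2 7.24, SE 0.33, edgeR adjusted p = 1.75e-26). For most of these genes plate 3, with its 13 endothelial cells, was the lowest. *Slc3a2*, at 1343, 1182 and 485 CPM, was the called transporter whose endothelial sums overlapped with another gate, where microglia reached 769 CPM and stood above it on plate 3 (log2 2.05, SE 0.25, edgeR adjusted p = 6.66e-10).

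The thyroxine carrier and the pumps were lower in level on the plates. *Slco1c1* stood at 303, 176 and 143 CPM in the endothelial gate and at 6.64 CPM or less in the others (log2 6.63, SE 0.35, edgeR adjusted p = 5.29e-24). *Abcb1a* stood at 151, 173 and 85.5 CPM against at most 4.73 CPM (log2 6.41, SE 0.38, edgeR adjusted p = 8.83e-22). *Abcg2*, whose mural gate was not called on the plates (log2 0.44, edgeR adjusted p = 0.291), had 245, 244 and 128 CPM against at most 82.3 CPM (log2 2.93, SE 0.23, edgeR adjusted p = 1.23e-16). The lowest endothelial plate of all 3 genes was still above every other sum.

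The carrier of lactate was called in microglia on the plates. *Slc16a1* was highest in the microglial gate of the plates, 2.74 above the mean of the other gates on the log2 scale (SE 0.45, edgeR adjusted p = 8.31e-07), where 22.2% of tested genes were higher. *Slc16a1* fell below the filter, and so had no test, without plate 1, without plate 2 and among cells with their own markers highest. Its neural gate was not called (edgeR adjusted p = 0.640), whereas in bulk the neural libraries had the highest mean but could not be separated from microglia (log2 0.72, limma adjusted p = 0.492). Whether bulk and single cells differ was not tested, since their units and libraries differ. With transcripts in 35 of 128 microglia (27.3%, exact 95% interval 19.8 to 35.9) and 11 of 225 endothelial cells (4.89%, 2.47 to 8.58), the gene was sparse in both. In cells thinned to 1500 transcripts these shares were 6.25% and 0.444%.

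**Figure D4:**
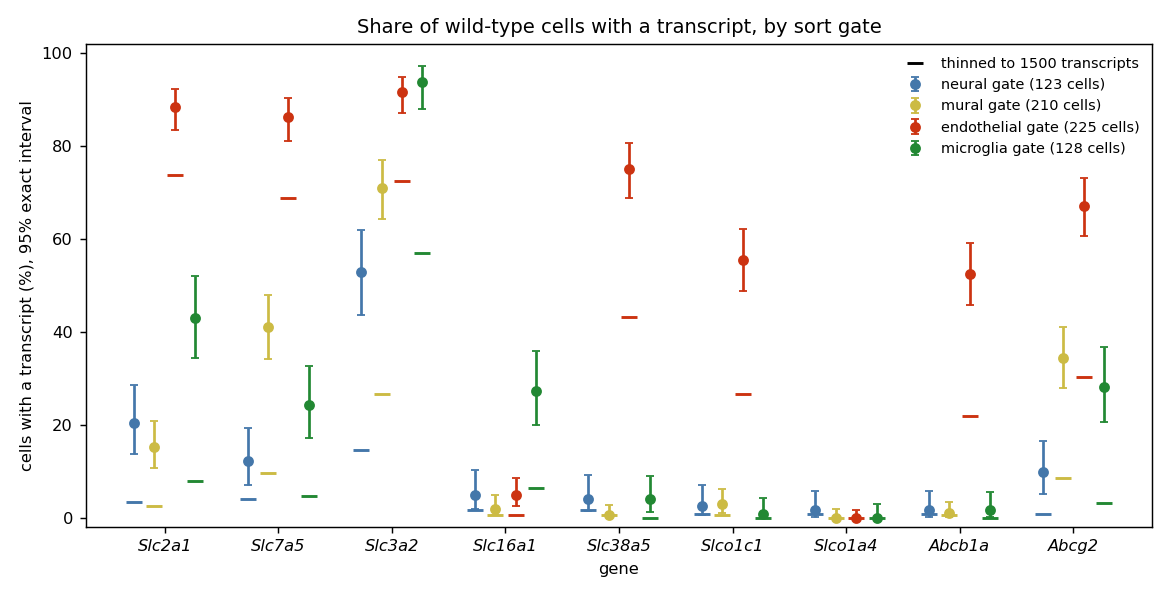
Share of wild-type cells in each sort gate with at least 1 transcript of each transporter, in percent, with exact 95% binomial intervals that cover counting error only; dashes give the share after thinning every cell to 1500 transcripts. In the endothelial gate 7 transporters lie between 52.4% and 91.6%, while Slc16a1 is at 4.89% and Slco1a4 at 0.

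Within the endothelial gate, most cells carried most of the set. Free RNA can place transcripts in cells that do not express a gene, so each share is given with that of the neural gate, whose cells were deeper. Neural shares are no pure background, since neural bulk libraries averaged 2374 normalized counts of *Slc3a2*, 1308 of *Slc7a5* and 846 of *Slc2a1*. *Slc3a2* was found in 206 of 225 endothelial cells (91.6%, exact 95% interval 87.1 to 94.8) and in 52.8% of neural cells. It was not particular to the endothelial gate, with a mean over the 3 plates of 691 CPM in the microglial and 1003 CPM in the endothelial gate. *Slc2a1* was found in 199 (88.4%, 83.5 to 92.3) against 20.3%, and *Slc7a5* in 194 (86.2%, 81.0 to 90.4) against 12.2%. The other carriers and pumps were found in fewer cells of both gates. *Slc38a5* was found in 169 (75.1%, 68.9 to 80.6) against 4.07%, *Abcg2* in 151 (67.1%, 60.6 to 73.2) against 9.76%, and *Slco1c1* in 125 (55.6%, 48.8 to 62.2) against 2.44%. *Abcb1a* was found in 118 (52.4%, 45.7 to 59.1) against 1.63%. *Slco1a4* had a transcript in 0 of 225 endothelial cells, and by counting error alone up to 1.63% of cells could hold a counted transcript, which sets no limit on cells that express it. *Slc16a1* was found in 4.89% of endothelial and 4.88% of neural cells.

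Shares were lower at equal depth. After thinning each cell to 1500 transcripts, which left out no cell, endothelial shares were 73.8% for *Slc2a1*, 72.4% for *Slc3a2*, 68.9% for *Slc7a5*, 43.1% for *Slc38a5*, 30.2% for *Abcg2*, 26.7% for *Slco1c1* and 21.8% for *Abcb1a*. Neural shares after thinning were 3.25%, 14.6%, 4.07%, 1.63%, 0.813%, 0.813% and 0.813%. The median endothelial cell held transcripts of 6 of the 9 genes (3 after thinning), against 1 in neural cells and 2 in mural cells and microglia. Both chains of the CD98 exchanger, *Slc7a5* and *Slc3a2*, were found together in 186 of 225 endothelial cells (82.7%, 77.1 to 87.4), 32.9% of mural cells, 24.2% of microglia and 8.13% of neural cells.

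The wider lists were read in the same way on the plates. In the endothelial gate 17 of 21 tested barrier transporters were higher by edgeR and the other 4 were not called, and 16 of 18 Wnt pathway genes were higher and the other 2 not called. Of 14 tested paralogs, 8 were higher and 2 lower. Of 5 tested regulators of drug and hormone transport, 1 was higher and 4 were not called. Of 12 genes of the amino acid and hypoxia responses, 1 was higher and 7 lower. Among all tested genes 16.4% were higher and 6.96% lower. The median log2 difference was 4.72 over the tested transporters and -0.02 over all tested genes.

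The plates labelled Mof Knockout were read as a further set of endothelial cells. *Mof* is the older name of *Kat8* (ENSMUSG00000030801), which encodes a histone H4 lysine 16 acetyltransferase. *Kat8* transcripts were found in 20 of 225 wild-type cells of the endothelial gate (8.89%, exact 95% interval 5.51 to 13.4), at 15 CPM, and in 6.29% of plate 6 of the knockout, at 11.2 CPM. Its 4 libraries had *Kat8* in 3.61%, 8.51%, 4.6% and 8.14% of cells. On plates 4 and 5 of the knockout, *Kat8* was found in 9.79% and 7.69% of cells. The deleted exons are not given in the sources used here, and tags from the 3′ end outside a deletion stay countable, so these values check nothing about the label. Knockout wells carry no gate. Of 882 knockout cells above 1500 transcripts, plate 6 held 350, and 263 of these fell into 4 clusters called endothelial-like from the markers of that cell type. The 9 transporters had been left out of the genes used for clustering.

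With 1 plate there is no test, and the values are set side by side with Poisson intervals that cover counting error only. Endothelial markers summed to 7243 CPM in the 263 cells and to 7322 CPM in the wild-type endothelial gate, with median depths of 5262 and 6408 transcripts. *Slc2a1* stood at 1039 CPM (988 to 1092) in the knockout cells and 1252 (1199 to 1307) in wild-type cells, *Slc7a5* at 773 (729 to 819) and 1096 (1047 to 1148), and *Slc3a2* at 1006 (955 to 1058) and 1245 (1192 to 1300). These 3 intervals did not overlap, with lower values in knockout cells, and plate and genotype cannot be told apart. Wild-type plate 3 lay lower still for each of the 3.

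The remaining transporters had overlapping intervals. *Slc38a5* stood at 462 CPM (428 to 498) in knockout cells and 475 in wild-type cells, *Abcg2* at 256 (231 to 283) and 239.6 (217 to 264), *Abcb1a* at 145 (126.3 to 166) and 157 (138 to 177), and *Slco1c1* at 209 (186 to 233) and 248 (225 to 273). *Slc16a1* was at 8.73 CPM (4.65 to 14.9) and *Slco1a4* had a counted transcript in 0 of 263 cells (up to 1.39% by counting error, with the same limit to its meaning). Both chains of CD98 were found in 217 of 263 cells (82.5%, 77.4 to 86.9). The 7 transporters found in many wild-type endothelial cells were thus those found here.

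**Figure D5:**
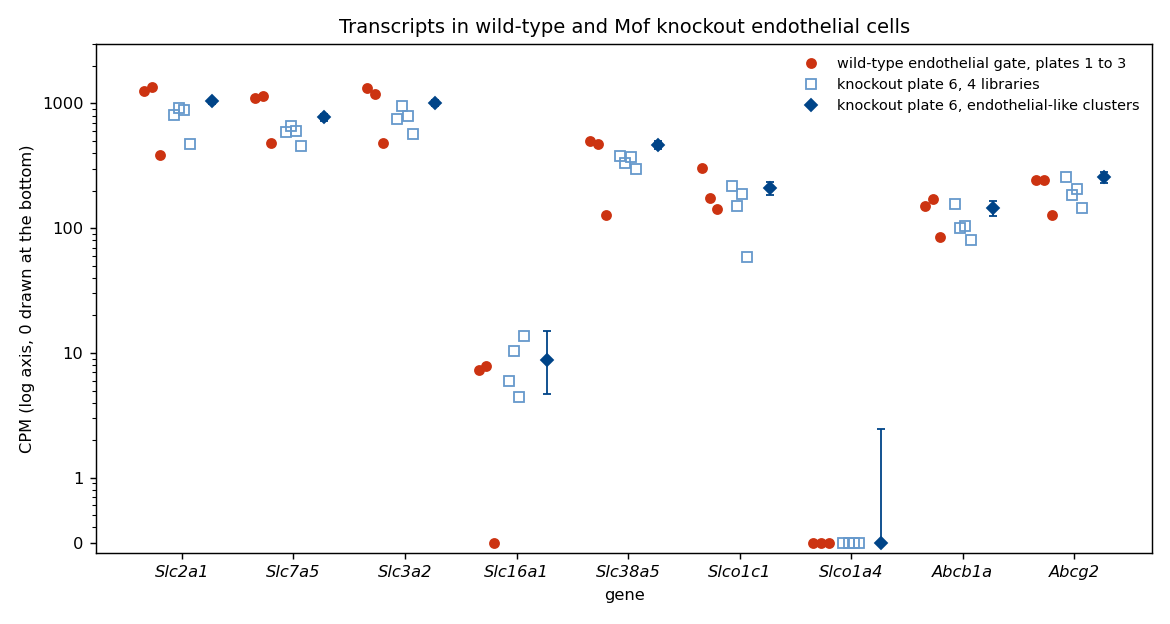
CPM of each transporter (log axis, 0 drawn at the bottom) in the wild-type endothelial gate on plates 1 to 3, in the 4 libraries of knockout plate 6, and in its endothelial-like clusters with Poisson intervals. Slc2a1 lies between 385 and 1352 on the wild-type plates and between 475 and 916 in the knockout libraries; Slco1a4 is at 0 in the wild-type gate.

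The 4 libraries of knockout plate 6, taken whole, varied among themselves. *Slc2a1* was 806, 916, 894 and 475 CPM in libraries 9, 10, 11 and 12, *Slco1c1* was 219.8, 151, 187 and 58.6 CPM, and *Abcb1a* was 158, 101.25, 103 and 80.1 CPM. Library 12 was the lowest for all 7 transporters found in many cells, including *Slc7a5* (459 CPM against 595.5 to 658) and *Abcg2* (145 CPM against 184 to 256).

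The endothelial-like clusters differed in their transporters, given as a description. The cluster of 72 cells on plate 6 led by *Slco1c1* itself, *Cxcl12*, *Spock2*, *Egfl8* and the tight junction gene *Cldn5* had *Slc2a1* at 1544 CPM, *Slco1c1* at 489 (423 to 561) and *Abcb1a* at 253 (206 to 307). The cluster of 71 cells led by *Col15a1* and *Plvap*, which encodes the diaphragm protein of leaky vessels, had *Slc2a1* at 828 (743 to 919), *Slco1c1* at 59.3 (38.3 to 87.5) and *Abcb1a* at 71.1 (48 to 101.5). A cluster of 47 cells led by cell division genes such as *Mki67* had 964, 149 and 115 CPM of the 3 genes, and a shallow cluster of 73 cells had 745, 111 and 138 CPM. *Slc38a5* followed the same direction, with 683 CPM in the *Cldn5* cluster and 332 CPM in the *Plvap* cluster. *Abcg2*, in contrast, lay between 236 and 278 CPM in all 4 clusters.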

How the data were processed

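Bulk libraries were aligned and counted by the study's authors, whose processing notes name STAR, featureCounts, DESeq2 and the build mm10; for single cells the notes name BWA 0.6.2-r126. The bulk table was deposited as a signal, gene counts that the authors divided by a size factor per library. Whole reads could be recovered: 100.0% of 124078 values of up to 100 reads were whole within 0.01. The single-cell tables deposited by the authors hold other values, transcript counts corrected for repeated molecular identifiers. No column was left unused (0).

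Genes with a mean normalized count of 10 or more were tested with limma 3.58.1 on log2(value + 1), by population without a block, and fold changes are on this scale, on which those of genes near 0 depend on the value added. Single cells above 1500 transcripts were summed per gate and plate, rounded and tested with edgeR 4.0.16 quasi-likelihood. No doublet caller was run, since 1 cell was sorted per well. Knockout cells were clustered with scanpy 1.11.5. DESeq2 1.42.0 served as an alternative, R was 4.3.3, and gene models were GENCODE on GRCm38. Ratios were tested by exact permutation over libraries, which leaves out the pairing by brain and the grouping of the other libraries into populations. Adjusted p-values are from Benjamini-Hochberg over all tested genes, with a threshold of 0.05.

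The tests were tested on simulated data. Each gene was drawn at the same mean in all populations, and every gene had the same dispersion. Only the chosen genes were raised, in endothelial cells. The spread of real genes between libraries differs, so these counts do not give the power in the real libraries. For the bulk endothelial comparison, limma called 11 of 50 genes raised 2-fold and 50 of 50 genes raised 4-fold, 10-fold or 50-fold (19765 genes). For the single-cell sums, edgeR called 19, 47, 50 and 50 of 50 (9281 genes).

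Libraries with the same number came from the same brain, which pairs them. Same-numbered libraries did not deviate together (18 correlations, -0.05 to 0.08). P-values measure the spread between these libraries or plates. The transporters and gene lists were chosen with earlier results of these data known. Named genes are the 9 transporters, the called genes of each list with the largest differences (up to 4 higher and 2 lower), the most abundant endothelial paralog of each transporter (1 of these is not reported here), and the 3 genes most like each transporter. *Bsg* and the lead genes of knockout clusters were named after their values were seen. One library of plate 3 has a title that disagrees with the number of its file, and its wells were taken from the well table by its file; without it no transporter's call in the endothelial gate changed, while *Slc16a1* in the mural gate went from an edgeR adjusted p of 0.0311 to 0.0578.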

Additional observations from a re-analysis of the deposited data

How the results depend on the processing

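The 7 transporters higher in bulk endothelial cells than in the mean of the others remained higher under every alternative run: other pseudocounts, filters and scalings, edgeR and DESeq2 on recovered reads, no neural libraries, and each brain left out. With the replicate block for the brain, 7 were again higher, with 3699 higher and 4315 lower among all genes against 3892 and 4430 without it, and no transporter's call in the endothelial comparison changed, whereas *Slc7a5* and *Abcb1a* were then called lower in mural cells (limma adjusted p = 0.0491 and 0.0457, from 0.0502 and 0.0652). *Slco1a4* passed the threshold with a pseudocount of 10 (1.75, limma adjusted p = 0.0460), edgeR (5.81, adjusted p = 0.0189), DESeq2 (5.50, adjusted p = 0.0173) and without the third brain (4.87, limma adjusted p = 0.0259), and without the first brain, which held 97 of its 117 endothelial reads, it fell below the filter and had no test. The number of transporters lower in endothelial cells was 0 to 1 with each brain left out, the 1 being *Slc16a1* without the second brain. The median log2 difference of all genes was -0.12, and -0.01 with quantile normalization and 0.07 with DESeq2, a shift far below the differences of the 7 transporters. Counts over all genes moved more. Without the neural libraries 2265 genes were higher and 2368 lower, edgeR on recovered reads gave 4115 higher and 2514 lower, and a pseudocount of 10 gave 567 genes over 10-fold against 1241. On the plates, DESeq2 gave 882 higher and 188 lower against 1521 and 646, and leaving out each plate gave 647 to 1979 higher and 64 to 877 lower. The ratio differences lay between -2.66 and -2.10 (*Slc3a2* to *Slc7a5*) and between 10.41 and 12.20 (*Abcb1a* to *Abcb1b*) with each brain left out, all at an exact permutation p of 0.0714, the smallest that 2 libraries against 6 can give. With a pseudocount of 0.5 and of 10, the first difference was -2.44 and -2.42 and the second was 11.38 and 8.96. Among the alternatives in which a transporter was tested, no difference in the bulk or the single-cell endothelial comparison changed its sign, whereas the balance of calls over all genes and their median did. Removing the library of plate 3 with the differing number was chosen after seeing the data, as were the cells with their own markers highest for the shares. *Slco1a4* fell below the filter in single cells, and 3 libraries or plates per group limit the size of difference that can be called.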

Other observations

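A further gate of the wild-type plates, with medium or low PDGFRβ, belongs to none of the 4 populations and entered no comparison. Of its 25 wells 23 were kept, and *Slc2a1* was found in 30.4% of them and *Slc3a2* in 52.2%. Another 37 wells had no gate, and 0 of these held more than 1500 transcripts.

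*Bsg* encodes basigin, the partner that brings MCT1 to the membrane and a marker of brain capillaries. Its normalized counts in endothelial libraries were 55429, 58014 and 63626, and its log2 difference from the mean of the other populations was 2.89 (limma adjusted p = 3.73e-09), against -1.54 for *Slc16a1* (limma adjusted p = 0.0977). The difference between the 2 genes was not tested.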
